A study of Mus musculus with 6 samples.

Results

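The genes of major histocompatibility complex (MHC) class I and class II antigen presentation were followed in RNAseq of mouse hearts. The members were chosen by name, and all 10 of the 10 named genes were among the 16018 genes of the table: the class I heavy chains *H2-K1* and *H2-D1*, the class I light chain *B2m*, the peptide loading genes *Tap1* and *Tapbp*, the class I transactivator *Nlrc5*, the class II chains *H2-Aa*, *H2-Ab1* and *H2-Eb1*, and the invariant chain *Cd74*. Hearts of 3 female KOb/c mice were compared with hearts of 3 female WT mice, all between 4 and 5 weeks of age. KOb/c mice lack the B and C variants of the sodium bicarbonate cotransporter NBCe1, which is encoded by *Slc4a4*, and keep the A variant of the kidney. Both groups were on a C57BL/6J background, and each library is labelled as a separate heart, so that the p-values measure the spread between these hearts.

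Class I molecules display peptides from the inside of a cell to cytotoxic T cells, and almost every nucleated cell makes them. Peptides cut by the proteasome are carried into the endoplasmic reticulum by the TAP transporter and are loaded there onto a heavy chain paired with beta-2 microglobulin. Class II molecules display peptides from engulfed material to helper T cells and are made mainly by B cells, dendritic cells and macrophages, which in the heart lie between the cardiomyocytes. Genes of both classes share a promoter module of S, X and Y boxes, to which Nlrc5 is recruited at class I genes and Ciita at class II genes, and interferon gamma is the best known inducer of both.

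The letters of this module are shown first, since the members were read as genes under a common promoter grammar. RefSeq promoters (GRCm38.p6, 250 bases before to 50 bases after the RefSeq start) were read for 7 of the 10 members, and *H2-Ab1*, *Cd74* and *Nlrc5* were not analysed in this way. *H2-K1* has 2 such entries, of which the first listed was used. In 5 of the 7, the core TGANG of the X box was followed after 19 to 22 bases by ATTGG, the core of the Y box that the factor NF-Y binds. This pair, searched on both strands, was held by 391 of 32851 promoters, or 1.19%. The range of spacings was set to take in the spacings of the members. In the lines that follow, each of 120 bases and written 5′ to 3′ along the gene, the capitals mark these 2 cores and, where present, the motif GGGNN joined to TTCCC or the motif GAAANN joined to GAAA.
H2-K1 (chr17:34000349-34000468, reverse strand): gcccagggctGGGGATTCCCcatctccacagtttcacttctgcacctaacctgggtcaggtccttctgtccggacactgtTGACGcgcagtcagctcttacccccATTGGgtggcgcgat
B2m (chr2:122147529-122147648, forward strand): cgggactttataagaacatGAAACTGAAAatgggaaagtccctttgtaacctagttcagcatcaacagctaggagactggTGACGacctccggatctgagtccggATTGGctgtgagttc
H2-Aa (chr17:34287858-34287977, reverse strand): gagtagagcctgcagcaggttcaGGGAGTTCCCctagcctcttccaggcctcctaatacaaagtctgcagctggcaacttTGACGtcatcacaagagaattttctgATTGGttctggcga
H2-Eb1 (chr17:34305701-34305820, forward strand): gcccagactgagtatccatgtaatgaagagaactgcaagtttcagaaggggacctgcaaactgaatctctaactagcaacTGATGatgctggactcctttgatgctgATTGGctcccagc
The stretch of *H2-D1* is not printed, since GENCODE M21 starts that gene further upstream than RefSeq does and annotates these bases as untranslated. The cores lay 20 bases apart in *H2-K1*, *H2-D1* and *B2m*, 21 in *H2-Aa* and 22 in *H2-Eb1*. The first core began 41 bases before the RefSeq start of the gene in *H2-K1*, 101 in *H2-D1*, 78 in *B2m*, 74 in *H2-Aa* and 86 in *H2-Eb1*. GGGNN joined to TTCCC, a form of the site of the factor NF-kB, was in the promoters of *H2-K1*, *H2-D1* and *H2-Aa* and in 1.75% of all promoters. GAAANN joined to GAAA, a form of the interferon-stimulated response element, was in that of *B2m* and in 3.44% of all promoters. The promoters of *Tap1* and *Tapbp* held ATTGG, as 37.4% of all promoters did, but not the pair of cores at this spacing in these 300 bases.

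The reads counted on genes ranged from 41364857 to 49100802 per library. Values are normalized counts, which are reads divided by a size factor of each library and are not scaled to gene length. The targeted gene *Slc4a4* was listed at 264, 944.8 and 268.7 in the libraries labelled KOb/c replicates 1, 2 and 3, and between 675.1 and 822.2 in WT, so that the library labelled KOb/c replicate 2 went against its label. The differences of the members are therefore given with and without it. The heart was represented by its markers, with all 10 listed cardiomyocyte genes found and a summed level of 3091769 to 3477130 normalized counts in KOb/c and 2752883 to 2850530 in WT hearts. These sums did not overlap. Of the 10 genes, 4 were above and 3 below WT in every KOb/c library, beside 15.6% and 14.6% of all genes. The part of this difference in the values of the members was not tested.

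Per kilobase of annotated exon, *B2m* was the highest member, with a mean level over the 6 libraries of 8291 normalized counts. It was followed by *H2-D1* at 3396, *H2-K1* at 2300, *Cd74* at 1060, *Tapbp* at 762, *H2-Eb1* at 375, *H2-Ab1* at 289, *H2-Aa* at 169, *Tap1* at 110 and *Nlrc5* at 15.6 normalized counts per kilobase. The class I chains thus stood above every class II gene in all libraries, the lowest *H2-K1* level being 1920 and the highest *Cd74* level 1443. Of the neighbours in this order, *Cd74* and *Tapbp*, *H2-Eb1* and *H2-Ab1*, *H2-Ab1* and *H2-Aa*, and *H2-Aa* and *Tap1* overlapped in their ranges over the libraries. In bulk tissue, fewer cells of a type and less RNA per cell cannot be told apart.

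The genotypes were compared on log2(normalized count + 1) by a two-sided limma test. The Benjamini-Hochberg adjustment took in all 16016 genes whose mean reached 10 normalized counts, and all 10 members were among them. None of the 10 members passed an adjusted p of 0.05, and the background was 0 of 16016 genes, or 0.0%. At an unadjusted p under 0.05 there was 1 member, *Tapbp*, against 23.5% of all genes. Without the library labelled KOb/c replicate 2 there were 3, *Tapbp* above and *H2-K1* and *B2m* below WT (limma unadjusted p = 0.0387, 0.0266 and 0.0463), against 20.8% of all genes, and 0 members passed the adjusted threshold. The groups did not overlap for 1 member, again *Tapbp*, against 30.2% of all genes. The median log2 fold change of the members was -0.06, beside -0.0043 over all genes tested, and 7 of the 10 were negative. Without that library the medians were -0.23 and -0.0050.

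**Figure D1:**
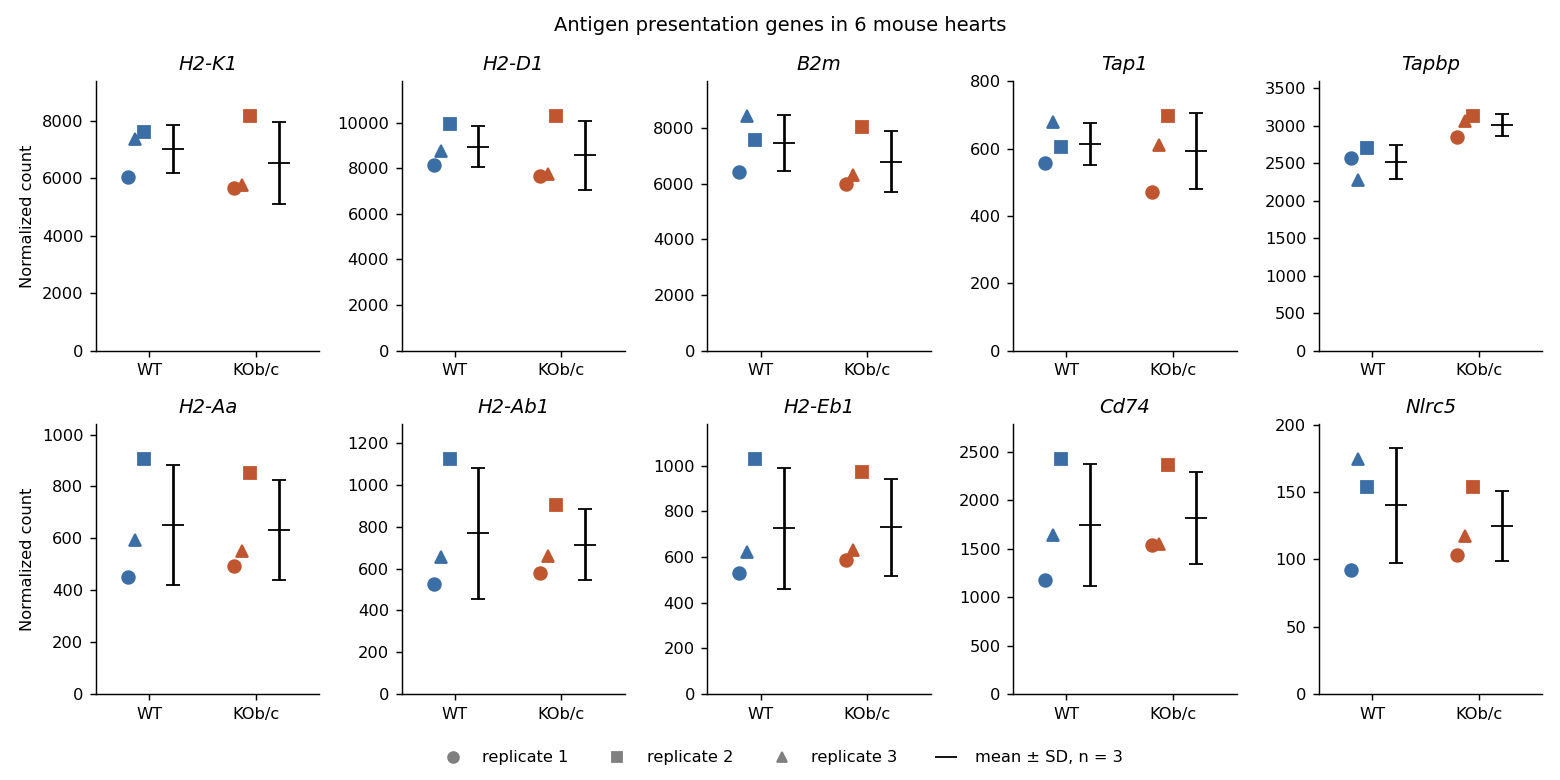
Normalized counts of the 10 members (vertical axes, from 0) in WT and KOb/c hearts (horizontal axes), with 1 point per library, its shape giving the replicate number, and the mean and SD of 3 libraries beside them. The groups overlap in every gene but *Tapbp*, where all 3 KOb/c libraries, at 2845 to 3127, lie above all 3 WT libraries, at 2271 to 2702.

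Among the class I chains, *H2-K1* (ENSMUSG00000061232; GRCm38 chromosome 17, 33996017 to 34000347) was counted at 5642, 8151 and 5768 in KOb/c replicates 1, 2 and 3 and at 6040, 7588 and 7359 in WT replicates 1, 2 and 3. *H2-D1* (chromosome 17, 35262730 to 35267499), the other classical heavy chain of this strain, was counted at 7651, 10283 and 7748 in KOb/c and at 8163, 9945 and 8753 in WT. *B2m* (chromosome 2, 122147686 to 122153083), which encodes beta-2 microglobulin, was counted at 6005, 8042 and 6319 in KOb/c and at 6406, 7583 and 8429 in WT. In all 3 genes KOb/c replicates 1 and 3 lay below every WT library and KOb/c replicate 2 lay among or above them, so the groups overlapped. The share of all genes with this order was not counted, and the 3 genes are not independent of each other. There was no significant difference between genotypes in *H2-K1* (WT: 6996 ± 836, KOb/c: 6520 ± 1414, SD, n = 3 each), with a log2 fold change of -0.12 (95% confidence interval -0.45 to 0.22, limma adjusted p = 0.677). The log2 fold change was -0.07 in *H2-D1* (-0.35 to 0.21, limma adjusted p = 0.757) and -0.14 in *B2m* (-0.44 to 0.15, limma adjusted p = 0.552). Without KOb/c replicate 2 these differences were -0.29, -0.21 and -0.27, and the limma adjusted p-values were 0.188, 0.248 and 0.234. Once each of the 6 libraries was corrected for the length and GC content of the transcripts, the differences were 0.0037, 0.035 and 0.054.

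Reads of the class I family can be shared between its members. Of all 150-base windows of their annotated transcripts, 1.35% in *H2-D1* and 0 in *H2-K1* were identical to a window of another gene among the H2 genes, the predicted Gm genes and the members, and *B2m*, *Tap1*, *Tapbp*, *Nlrc5*, *Cd74* and the class II chains shared 0 as well. Only exact identity over 150 bases was counted, so a share of 0 does not exclude shared reads over shorter or nearly identical stretches. In the nonclassical *H2-Q6* and *H2-Q7* the shares were 5.99% and 5.90%, so their split is uncertain. *H2-Q6* was counted at 363, 716 and 273 in KOb/c and at 288, 370 and 399 in WT, and *H2-Q7* at 237, 408 and 193 in KOb/c and at 234, 265 and 272 in WT. Both were highest in KOb/c replicate 2, as were *H2-K1* and *H2-D1*. Of 15 further class I heavy chain and related genes listed, 12 were tested and 0 passed the adjusted threshold. An unadjusted p under 0.05 by limma was found in 0, against 23.5% of all genes. The groups did not overlap in 0, against 30.2% of all genes. The median log2 fold change of the list was -0.10, or -0.20 without KOb/c replicate 2. *H2-M5*, *H2-Q1* and *H2-Q2* were not analysed here.

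In the peptide loading step, *Tap1* (chromosome 17, 34187553 to 34197225), a subunit of the transporter that moves peptides into the endoplasmic reticulum, was counted at 472, 697 and 610 in KOb/c and at 556, 605 and 680 in WT. The groups overlapped, with a log2 fold change of -0.06 (95% confidence interval -0.39 to 0.27, limma adjusted p = 0.834), or -0.19 without KOb/c replicate 2. *Tapbp* (chromosome 17, 33915899 to 33929292) encodes tapasin, which holds the empty class I molecule at this transporter. It was counted at 2845, 3127 and 3060 in KOb/c and at 2576, 2702 and 2271 in WT. It was the member whose KOb/c libraries all lay above all WT libraries (WT: 2516 ± 222, KOb/c: 3011 ± 147, SD, n = 3 each). The log2 fold change was 0.26 (95% confidence interval 0.08 to 0.44), with an unadjusted p of 0.0103 and an adjusted p of 0.111 by limma, so that it did not pass. An exact two-sided permutation test gave p = 0.1, the smallest that 3 against 3 allow. The direction held in 19 of 19 alternatives, with log2 fold changes from 0.19 to 0.35, and without KOb/c replicate 2 it was 0.23. Rescaled to the same total, the log2 fold change of *Tapbp* was 0.19 and its unadjusted p 0.0730, so that 0 members were then under 0.05. Count tests were run on 4 libraries (KOb/c replicates 2 and 3, WT replicates 1 and 3), in which *Tapbp* passed by DESeq2 (adjusted p = 0.0255), as did 3.98% of all genes, and did not by edgeR (adjusted p = 0.139), by which 0.00624% of all genes passed. Of 16016 genes, 15.6% had all KOb/c libraries above all WT libraries.

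Of the 11 other genes of peptide supply and loading, 0 passed the adjusted threshold by limma. At an unadjusted p under 0.05, 2 were above and 3 below WT in KOb/c, beside 13.0% and 10.5% of all genes. The chaperone gene *Canx* (calnexin), which folds new heavy chains, was counted at 11593, 12583 and 12169 in KOb/c and at 9194, 11005 and 9729 in WT, a log2 fold change of 0.28 (limma adjusted p = 0.0961). *Erap1*, which trims peptides in the endoplasmic reticulum, was counted at 1814, 1630 and 1851 in KOb/c and at 1261, 1626 and 1447 in WT, a log2 fold change of 0.29 (limma adjusted p = 0.132). Thus *Canx* and *Erap1* stood with *Tapbp* among the genes whose KOb/c libraries were all above WT.

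The immunoproteasome subunit gene *Psmb10* was counted at 1492, 1865 and 1673 in KOb/c and at 2126, 2426 and 1968 in WT, a log2 fold change of -0.37 (limma adjusted p = 0.0961). *Psme2*, a subunit of the proteasome activator PA28, was counted at 1646, 1757 and 1901 in KOb/c and at 2313, 2102 and 1992 in WT, a log2 fold change of -0.27 (limma adjusted p = 0.108). For both, all KOb/c libraries lay below all WT libraries, as in 14.6% of all genes. Both were named because their groups do not overlap. Corrected for length and GC content in this way, the differences were -0.21 for *Psmb10*, -0.10 for *Psme2*, 0.25 for *Canx*, 0.19 for *Erap1* and 0.32 for *Tapbp*. Over all genes tested, the difference between genotypes was correlated with transcript length (Spearman's rho = 0.45; genes are not independent of each other). The part of this trend in each gene's difference was not tested further.

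*Nlrc5* (chromosome 8, 94434356 to 94527272), the transactivator of class I genes, was counted at 103, 154 and 117 in KOb/c and at 92.2, 154 and 174 in WT. The groups overlapped, with a log2 fold change of -0.14 (95% confidence interval -0.72 to 0.45, limma adjusted p = 0.790), or -0.30 without KOb/c replicate 2. Corrected for length and GC content, the difference was -0.33 (limma adjusted p = 0.559). At these counts the counting error alone was 8.70% of the mean, beside 1.07% for *H2-D1*. Over the 6 libraries, the correlation (Pearson's r) of log2 *Nlrc5* with the class I chains lay between 0.72 and 0.93, and with *Tap1* it was 0.79. With the class II genes it lay between 0.66 and 0.76, a range that overlaps that of the class I chains. These are descriptions over libraries that share genotype and depth differences. Of the 7 genes for factors that bind the S, X and Y boxes, 0 passed the adjusted threshold by limma. An unadjusted p under 0.05 was found in 0, against 23.5% of all genes, and the median residual SD was 0.06 on the log2 scale. *Creb1*, a factor of the X box, was counted at 1319, 1225 and 1174 in KOb/c and at 1045, 1140 and 1165 in WT (log2 fold change 0.15, limma adjusted p = 0.282), a difference of -0.04 with the correction for length and GC content.

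The class II genes differed little between the group means and much between hearts of 1 genotype. *H2-Aa* (chromosome 17, 34282744 to 34287823), the alpha chain of I-A, was counted at 493, 853 and 551 in KOb/c and at 453, 904 and 593 in WT. *H2-Ab1* (chromosome 17, 34257689 to 34269419), its beta chain, was counted at 581, 905 and 659 in KOb/c and at 527, 1124 and 658 in WT. *H2-Eb1* (chromosome 17, 34305867 to 34316674), the beta chain of I-E, whose alpha chain partner is not made in this strain, was counted at 587, 973 and 630 in KOb/c and at 530, 1028 and 623 in WT. In each of these genes replicate 2 was the highest and replicate 1 the lowest library of both genotypes, and the groups overlapped. *Cd74* (chromosome 18, 60803848 to 60812652), the invariant chain that guides class II molecules to the endosome, was counted at 1534, 2362 and 1547 in KOb/c and at 1178, 2423 and 1638 in WT, in the same order. The same number does not join animals across genotypes in the labels.

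There was no significant difference in class II genes between WT and KOb/c hearts, and the intervals were wide. The log2 fold change was -0.02 in *H2-Aa* (95% confidence interval -0.63 to 0.58, limma adjusted p = 0.971) and -0.06 in *H2-Ab1* (-0.66 to 0.55, limma adjusted p = 0.923). It was 0.03 in *H2-Eb1* (-0.56 to 0.62, limma adjusted p = 0.963) and 0.09 in *Cd74* (-0.49 to 0.67, limma adjusted p = 0.872). The intervals take in differences as large as a fold of 0.633 and of 1.59. The signs turned with single libraries. Without KOb/c replicate 2 the 4 differences ran from -0.26 to -0.12 and without WT replicate 1 from -0.29 to -0.17, whereas without WT replicate 2 they ran from 0.24 to 0.35. With the correction for length and GC content they were -0.0048 in *H2-Aa*, 0.12 in *H2-Ab1*, 0.15 in *H2-Eb1* and 0.25 in *Cd74*.

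Within the WT group, replicate 2 was 1.94 to 2.13 times replicate 1 in the 4 class II genes, and within KOb/c, replicate 2 was 1.46 to 1.63 times the mean of the other 2 libraries. The median residual SD of the class II genes was 0.45 on the log2 scale, beside 0.22 for the 6 class I members including *Nlrc5* and 0.14 over all genes tested. The highest library was a median of 2.03 times the lowest for class II genes, 1.42 times for class I members and 1.38 times for all genes. Over the 6 libraries, the class II genes had pairwise correlations of 0.96 to 0.99 (Pearson's r, 6 pairs), the class I chains of 0.80 to 0.96 (3 pairs), and the class I chains with class II genes of 0.59 to 0.92 (12 pairs). *Tapbp* stood apart, with correlations of -0.35 to 0.35 with the other 9 members.

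**Figure D2:**
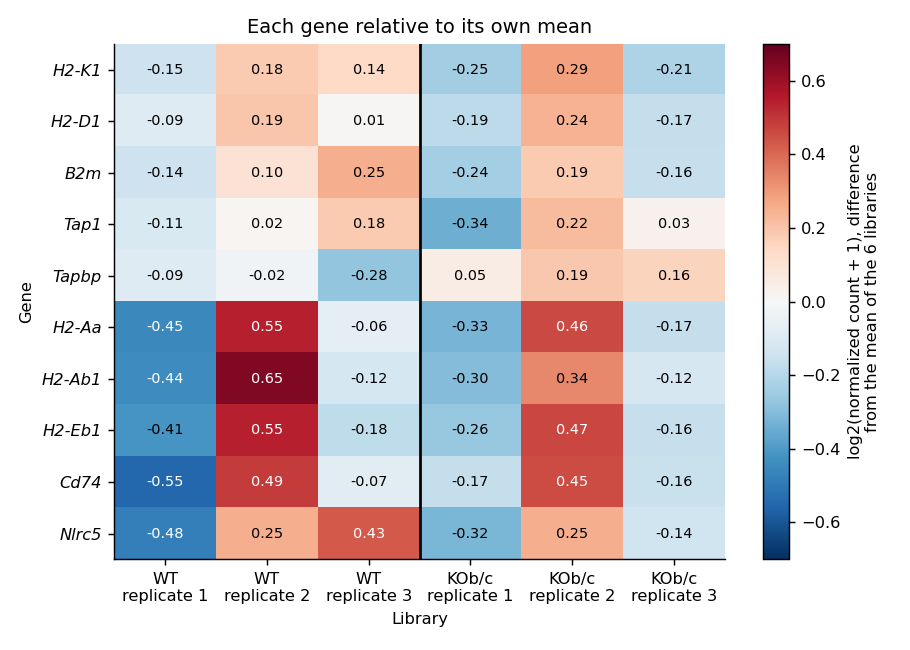
Difference of each member's log2(normalized count + 1) from its mean over the 6 libraries (rows: genes, columns: libraries, colour and printed value on the log2 scale). Replicate 2 of both genotypes is highest in the class II genes, with *H2-Ab1* at 0.65 in WT replicate 2, while *Tapbp* is lowest in WT replicate 3.

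Within KOb/c, replicate 2 was the highest and replicate 1 the lowest library in 10 of 10 members, an order found in 18.0% of all genes. Within WT, replicate 1 was the lowest library in 9 members, beside 34.1% of all genes, and replicate 2 the highest in 7, beside 34.0%. The members are not independent of each other, and these orders are given as descriptions. The library labelled KOb/c replicate 2 is also the one whose *Slc4a4* count, at 944.8, lay above the WT range of 675.1 to 822.2.

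Of the 12 further class II pathway genes listed, 10 were tested and 0 passed the adjusted threshold by limma. An unadjusted p under 0.05 was found in 1 (*Ctss*), against 23.5% of all genes, and the median log2 fold change was -0.05. *H2-Eb2* and *H2-Oa* were not analysed here. *Ciita*, the class II transactivator, was counted at 51.6, 80.6 and 75.4 in KOb/c and at 37.9, 81.1 and 69.1 in WT, with the lowest count of each group in replicate 1. *Ctss*, the protease that cuts the invariant chain, was counted at 651, 726 and 759 in KOb/c and at 850, 852 and 929 in WT, a log2 fold change of -0.30 (limma adjusted p = 0.10). *Ifi30*, the lysosomal thiol reductase that unfolds antigens, was counted at 273, 336 and 345 in KOb/c and at 395, 356 and 390 in WT, a log2 fold change of -0.26 (limma adjusted p = 0.223). For *Ctss* and *Ifi30* all KOb/c libraries lay below all WT libraries, as in 14.6% of all genes, and the differences were -0.16 and -0.09 after the length and GC correction.

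**Figure D3:**
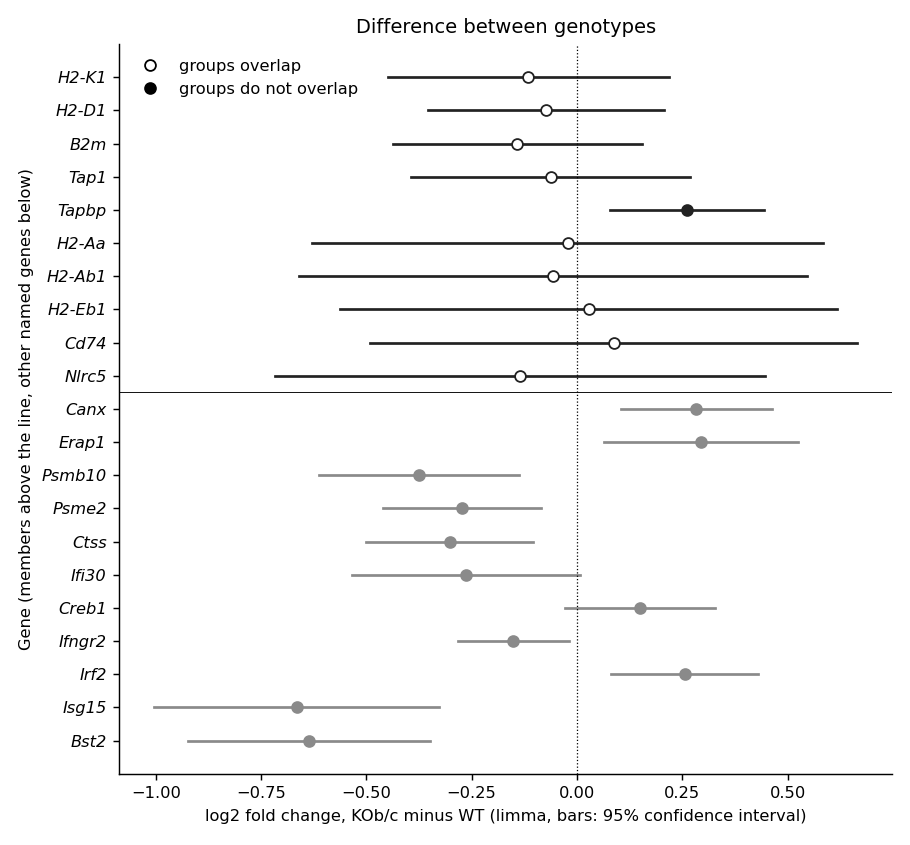
log2 fold change of KOb/c against WT hearts (horizontal axis) with its 95% confidence interval by limma for the 10 members (above the line) and for the pathway genes named by rule (below it, grey), with filled points where the groups do not overlap. The intervals of 9 members cross 0, and *Tapbp* is at 0.26. The grey genes were named because their groups do not overlap.

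Among 29 genes of interferon signalling, a list of receptors, factors and interferon-induced genes, 0 passed the adjusted threshold by limma. Of these 29, 22 had a negative log2 fold change, as had 8137 of all 16016 genes. The median was -0.15, or -0.20 without KOb/c replicate 2. At an unadjusted p under 0.05, 6 were below and 1 was above WT in KOb/c, beside 10.5% and 13.0% of all genes. *Isg15*, a ubiquitin-like protein induced by type I interferon, was counted at 173, 214 and 224 in KOb/c and at 282, 318 and 371 in WT, a log2 fold change of -0.67 (limma adjusted p = 0.0815). *Bst2* (tetherin) was counted at 767, 1055 and 992 in KOb/c and at 1383, 1356 and 1611 in WT, a log2 fold change of -0.64 (limma adjusted p = 0.0815). Both were lower in every KOb/c library than in any WT library, as were 14.6% of all genes, and were named because their groups do not overlap. With the correction for length and GC content the differences were -0.48 and -0.44.

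The log2 fold change was 0.26 in *Irf2*, an antagonist of interferon responses, and -0.15 in *Ifngr2*, a chain of the interferon gamma receptor, with limma adjusted p-values of 0.107 and 0.165. *Irf1*, an interferon-induced factor that binds class I promoters, had a log2 fold change of -0.08 (limma adjusted p = 0.634). Over the 6 libraries the mean profile of the interferon list had a correlation of 0.75 with that of the class I chains and of 0.34 with that of the class II genes. Other lists reached a like size. The values with class I and class II were 0.71 and 0.71 for the other peptide loading genes, and -0.77 and -0.79 for the S, X and Y box factors.

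The marker lists of immune cells did not move alike. All 9 B cell markers were listed, with none at 0, and their summed level was 691, 1116 and 1211 normalized counts in KOb/c and 681, 1804 and 867 in WT. WT replicate 2 was the highest library of the sum, as it was for the class II genes, whereas KOb/c replicate 2 was below KOb/c replicate 3. *Cd79a*, part of the B cell receptor, was counted at 53.6, 94.1 and 113 in KOb/c and at 65.6, 193 and 65.0 in WT. The 8 T and NK cell markers analysed of 11 had a summed level of 133 to 228 in KOb/c and 161 to 295 in WT, and the 7 dendritic cell markers of 9 of 1086 to 1278 and 1093 to 1131. *Cd3e*, *Klrb1c*, *Ncr1*, *Flt3* and *Cd209a* were not analysed here.

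The 15 macrophage markers had a summed level of 16595 to 18571 in KOb/c and 19561 to 20153 in WT hearts. These sums did not overlap. The abundant *C1qa*, *C1qb*, *C1qc* and *Lyz2* were the 4 of the 15 markers below WT in every KOb/c library, as were 14.6% of all genes. The length and GC correction is not given for these 4. The mean log2 profile of the list, in which each gene counts alike, did overlap. Of the 15 markers, 7 had a positive log2 fold change, and the values ran from -0.39 to 0.35. Over the 6 libraries the mean log2 profile of the class II genes had a correlation of 0.82 with that of the B cell markers, 0.82 with T and NK cells, 0.81 with dendritic cells and 0.06 with macrophages. The part of these cells in the class II levels was not tested.

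**Figure D4:**
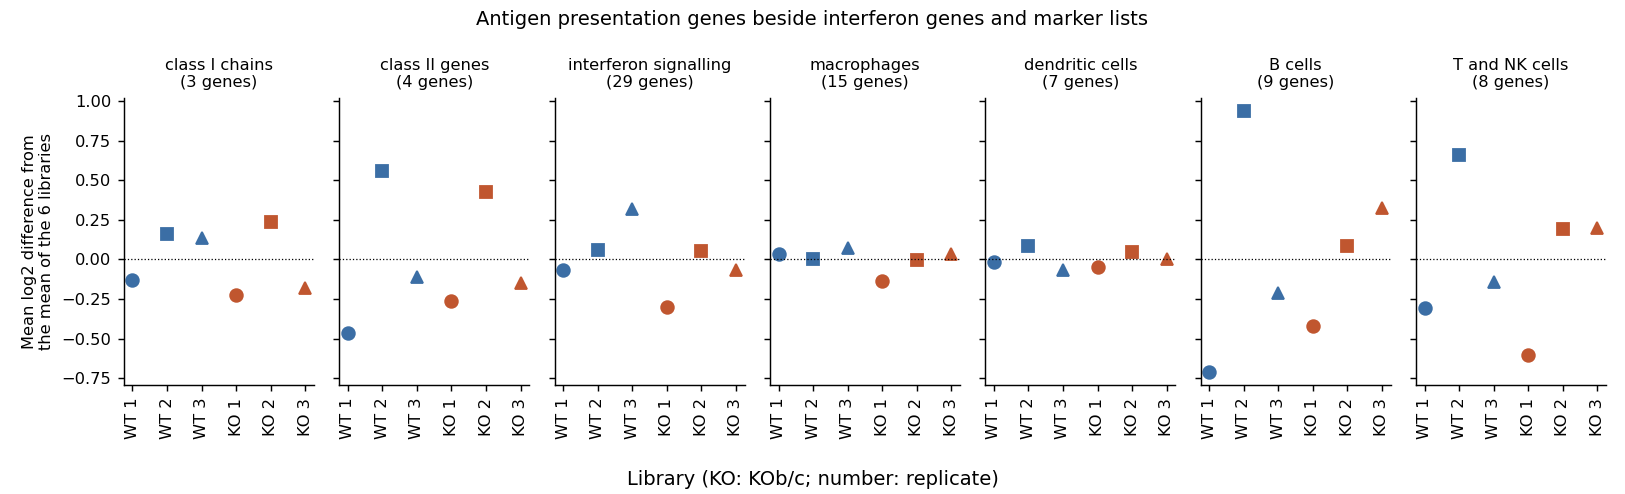
Mean log2 difference of each library from the mean of the 6 libraries (vertical axis) for the class I chains, the class II genes, interferon genes and markers of 4 immune cell groups (panels), by library (horizontal axis; WT blue, KOb/c orange, shape: replicate). WT replicate 2 is highest for class II genes (0.56) and B cell markers (0.94), KOb/c replicate 2 is second for class II genes (0.43) and at 0.09 for B cell markers, and the macrophage list stays between -0.14 and 0.07.

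The genes whose profile over the 6 libraries was most like that of the class I chains, among 11845 genes outside the lists whose mean reached 100 normalized counts, were *Lgi4*, *Zfp503*, *H2-Q5*, *Selenop* and *Poglut1*, with Pearson's r of 0.97 to 0.98. *H2-Q5*, a class I family gene annotated as a polymorphic pseudogene, was counted at 66.5, 156 and 82.5 in KOb/c and at 90.1, 128 and 142 in WT. The genes most like the class II profile were *Smyd5*, *Abcd2*, *Aig1*, *Nfil3* and *Leo1*, with r of 0.97 to 0.98. With 6 libraries and 11845 genes, correlations of this size are a ranking and no test.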

How the data were processed

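Total RNA of hearts was purified on columns and sequenced as paired reads on an Illumina HiSeq. Per the submitters' processing notes, Trimmomatic 0.36, STAR 2.5.2b, featureCounts of Subread 1.5.2, DESeq2 and GRCm38 were used. The annotation, the use of strand and the treatment of shared reads are not given in the sources used here. The authors deposited a normalized signal per gene, that is, read counts divided by a size factor of each library. Divided by what 1 read was worth in its library, each value came out whole within 0.01.

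Symbols and positions were taken from GENCODE M21. limma 3.58.1 (R 4.3.3) with a variance trend was fitted to log2(normalized count + 1), over all 6 libraries as labelled. The pseudocount understates changes of low genes. Count tests (edgeR 4.0.16, DESeq2 1.42.0) were run on the reads of 4 libraries, since an automatic check of whole reads did not accept the other 2 columns. The procedure was tested on simulated data that held no library against its label, no trend with length and less spread than the class II genes. That test does not show how the procedure performs on these members. The correction subtracted, per library, a spline fit (5 degrees of freedom each) on log2 length and GC content of the transcripts.

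The members, lists and tests were chosen with earlier results of these data known. Named pathway genes were, per list, up to 4 of the largest differences among genes with a mean of at least 100 whose groups did not overlap. Other genes of the lists (*H2-Q6*, *H2-Q7*, *Pdia3*, *Tap2*, *Tapbpl*, *Calr*, *Ciita*, *Irf1*, *Cd79a*, *C1qa*, *C1qb*, *C1qc* and *Lyz2*) were named after their values were seen. Another gene of the interferon list is not reported here.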

Additional observations from a re-analysis of the deposited data

How the results depend on the processing

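With 3 hearts per group and the spread of the class II genes, the design limits what can be told apart more than depth does. Across 19 alternatives the values of the members and *Slc4a4* kept their direction and side of the threshold in 165 of 209 cases, reversed in 42 and passed the threshold in 2 (*Slc4a4* without KOb/c replicate 2, -1.51, limma adjusted p = 0.0121, and *Tapbp* by DESeq2 on 4 libraries). The planned edgeR and DESeq2 tests on 6 libraries were not run, since a check accepted whole reads for 4 columns only. Tests on those 4 libraries (KOb/c replicates 2 and 3, WT replicates 1 and 3) were chosen after seeing the data, as was the length and GC correction with the replicate block. They called 1 gene by limma, 1 by edgeR (0.00624%) and 638 by DESeq2 (3.98%), against 0 by limma on 6 libraries. The members called were 0 by limma, 0 by edgeR and 1 by DESeq2 (*Tapbp*, 0.35, adjusted p = 0.0255). The cause was not tested.

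On the 4 libraries, log2 fold changes by limma, edgeR and DESeq2 reversed to 0.040, 0.048 and 0.054 for *H2-K1*, 0.078, 0.086 and 0.091 for *H2-D1*, 0.085, 0.074 and 0.079 for *Tap1*, 0.40, 0.42 and 0.42 for *H2-Aa*, 0.39, 0.39 and 0.40 for *H2-Ab1*, and 0.082, 0.016 and 0.022 for *Nlrc5*. *H2-Eb1* kept its sign at 0.45, 0.47 and 0.47 (unadjusted p = 0.0590, 0.0497 and 0.0205) and *Cd74* at 0.46, 0.46 and 0.47, and neither passed the adjusted threshold. For every class II gene, these 4 libraries leave out the highest WT library (replicate 2) and the lowest KOb/c library (replicate 1). They keep KOb/c replicate 2, the library that went against its label. The values on 4 libraries thus differ from the main ones in the hearts compared as well as in the method. Rescaled to the same total, which moved the median of all genes to -0.08, *H2-Eb1* was at -0.045. That scaling gave 1259 genes higher and 2539 lower at an unadjusted p under 0.05, against 2083 and 1681. Corrected for length and GC content, with and without the replicate block, *H2-K1* was at 0.0037, *H2-D1* at 0.035, *B2m* at 0.054 and *H2-Ab1* at 0.12. When libraries were left out 1 at a time, the ranges were -0.29 to -0.02 for *H2-K1*, -0.21 to 0.0044 for *H2-D1*, -0.27 to -0.05 for *B2m*, -0.19 to 0.092 for *Tap1*, 0.19 to 0.31 for *Tapbp*, -0.26 to 0.24 for *H2-Aa*, -0.29 to 0.25 for *H2-Ab1*, -0.20 to 0.31 for *H2-Eb1*, -0.17 to 0.35 for *Cd74* and -0.41 to 0.046 for *Nlrc5*. The count of genes called ranged from 0 to 3, the 3 without KOb/c replicate 2, and that of members was 0 throughout.

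The replicate numbers are shared across genotypes in the labels, which do not say whether they pair the hearts. Over all genes, the correlations of same-numbered deviations were 0.23, 0.07 and -0.03, and those of the other pairs ran from -0.18 to 0.15. Such correlations cannot decide whether hearts were paired. In the class II genes the standard errors were 0.087 to 0.11 with the replicate block, against 0.25 to 0.27 without it. The limma adjusted p-values of these genes with the block were 0.635 to 0.904. With the replicate block, 0 genes and 0 members passed, and 3924 genes had an unadjusted p under 0.05, against 3764 without it.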
